A study of Mus musculus with 8 samples.

Results

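Replication-dependent histone genes supply the H1 linker histone and the H2A, H2B, H3 and H4 core histones that package newly copied DNA. They were taken as the genes whose GENCODE M21 symbol begins with Hist1h, Hist2h, Hist3h or Hist4h and whose read counts summed to at least 10 over the 8 libraries. Of 55421 rows in the count table, 70 carried such a symbol and 65 were kept, namely 6 H1, 17 H2A, 18 H2B, 11 H3 and 13 H4 genes. A filter on low counts left 58 of the 65 for testing, with 6, 13, 16, 10 and 13 genes in the same class order. The remaining 7 (Hist1h2aj, Hist1h2ao, Hist1h2ap, Hist1h2bq, Hist1h2br, Hist2h2aa2 and Hist2h3c2) held 18 to 40 counts each over all libraries and were not tested. A member that passed this filter through its CB libraries alone had to be low in CC, so counts of passing members are descriptions. The 5 genes below the count minimum were Hist1h2aa, Hist1h2al, Hist1h2ba, Hist2h2aa1 and Hist2h3c1.

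Bulk RNA was sequenced from splenic germinal centre B cells of C57BL/6 mice aged 8 to 10 weeks, taken 10 days after immunization and enriched on PNA beads. The 4 groups were Smarca4+/- (HET) CC, HET CB, Smarca4+/+ (WT) CC and WT CB, with 2 libraries each. Smarca4 encodes a catalytic ATPase of the SWI/SNF chromatin remodelling complex, and HET cells carried 1 intact copy of it. CC and CB were read as centrocytes and centroblasts, the light zone and dark zone B cells of the germinal centre. The labels give neither the immunizing agent, how the Smarca4 allele was made and in which cells, nor how CC and CB were separated. They also do not say whether replicates came from different mice, so p-values rest on library-to-library spread that could be technical only.

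Replication-dependent histone genes lie in clusters and are transcribed mainly in S phase, when the cell needs a new complement of nucleosomes. Their messages normally carry no poly(A) tail and end in a short stem-loop, bound by the protein Slbp, that directs their processing, translation and rapid decay when replication stops. Dark zone B cells of the germinal centre divide quickly, and light zone B cells spend most of their time outside S phase while they test antigen and receive T cell help. The libraries were made from ribosomal RNA depleted total RNA, a preparation that keeps messages without a poly(A) tail. In bulk RNA, fewer cells in S phase and less histone RNA per cell cannot be told apart.

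The stem-loop is shown because it marks the whole class of message. Annotated GENCODE M21 transcripts of 31 of the 65 members held an exact 16-base copy, and those of another 10 held one with 1 mismatch. The 24 exact copies in H1, H2A, H2B and H3 members were of the form shown for Hist1h1e, and the 7 in H4 members were of the form shown for Hist1h4c, which differs in the stem. No copy was found in the annotated transcripts of 24 members, which says only that these letters were not in those models. Capitals mark the stem-loop and lower case its flanks of 5 bases, 5′ to 3′, written as DNA; Hist1h3e has 1 mismatch to the Hist1h1e form.
Hist1h1e: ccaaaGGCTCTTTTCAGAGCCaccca
Hist1h2ac: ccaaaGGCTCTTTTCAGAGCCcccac
Hist1h2bg: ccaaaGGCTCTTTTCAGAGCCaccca
Hist1h3e: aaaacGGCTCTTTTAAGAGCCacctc
Hist1h4c: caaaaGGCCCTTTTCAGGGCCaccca
Hist1h4d: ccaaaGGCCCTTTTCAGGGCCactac

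Promoters are shown for 1 strongly expressed or strongly shifted gene of an H1, an H2A, an H3 and an H4 type, because the classes moved together between fractions while their promoters differed in lettering. RefSeq (GRCm38.p6) promoter sequence was matched to 57 of the 65 members, and each line gives the 250 bases before the annotated start. Capitals mark motifs searched on both strands, which did not overlap each other here. The core promoter motifs were the TATA box, spelled TATAAA, and the CCAAT box. The class motifs were the octamer, spelled ATTTGCAT, an element known from H1 promoters, spelled AAACACA, and one known from H4 promoters, spelled GGTCCG.
Hist1h1e, chr13:23622559-23622808, minus strand: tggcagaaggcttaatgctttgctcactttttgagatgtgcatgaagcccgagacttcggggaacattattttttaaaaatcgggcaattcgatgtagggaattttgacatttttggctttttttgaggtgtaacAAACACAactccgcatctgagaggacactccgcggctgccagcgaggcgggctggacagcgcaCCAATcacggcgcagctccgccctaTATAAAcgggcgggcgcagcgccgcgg
Hist1h2ac, chr13:23683960-23684209, minus strand: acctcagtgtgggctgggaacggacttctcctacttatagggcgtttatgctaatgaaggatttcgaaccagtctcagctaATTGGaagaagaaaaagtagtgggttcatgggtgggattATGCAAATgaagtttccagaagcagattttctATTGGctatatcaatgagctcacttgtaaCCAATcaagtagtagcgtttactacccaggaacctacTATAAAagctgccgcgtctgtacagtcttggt
Hist1h3e, chr13:23562386-23562635, minus strand: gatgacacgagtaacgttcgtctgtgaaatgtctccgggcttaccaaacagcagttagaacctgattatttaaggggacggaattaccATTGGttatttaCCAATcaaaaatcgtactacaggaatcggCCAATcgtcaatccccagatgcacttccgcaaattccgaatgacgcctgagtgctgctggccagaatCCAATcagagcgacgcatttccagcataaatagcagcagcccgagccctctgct
Hist1h4d, chr13:23581318-23581567, plus strand: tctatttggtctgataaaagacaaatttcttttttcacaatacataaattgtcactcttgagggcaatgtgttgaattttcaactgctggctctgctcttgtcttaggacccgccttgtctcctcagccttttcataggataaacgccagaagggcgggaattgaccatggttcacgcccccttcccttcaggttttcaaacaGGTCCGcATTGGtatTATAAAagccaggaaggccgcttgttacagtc

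The lettering followed the class. CCAAT stood in the promoters of all 5 H1, all 16 H2A, all 15 H2B and 8 of 9 H3 genes matched, and in 3 of 12 H4 genes, against 33.8% of 32817 mouse promoters of the same length. The H1 element stood in 4 of 5 H1 promoters, against 6.25% of all promoters. The H4 element stood in 9 of 12 H4 promoters, against 6.72% of all promoters. The octamer, a binding motif of POU factors, stood in 6 of 16 H2A and 5 of 15 H2B promoters and in no H1, H3 or H4 promoter, against 1.6% of all promoters. TATAAA stood in 26 of the 57 member promoters (45.6%), against 12.4% of all promoters. The promoter sequences of some H2A and H2B neighbours overlap on opposite strands, nearly fully for Hist1h2ag and Hist1h2bj, so the same site can count in both classes. Those of Hist1h2bq and Hist1h2br are identical copies. These counts are therefore not of independent promoters. A match is a description of letters and does not show a site in use.

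Total counts were 676852 and 837558 in HET CC, 18357578 and 22929995 in HET CB, 526353 and 589802 in WT CC, and 20325562 and 24341805 in WT CB, so CC libraries were shallow. Smarca4 itself had 244.4 and 310.6 CPM (counts scaled to library size with TMM factors) in HET CC, against 321.6 and 315.5 CPM in WT CC. In CB it had 733.6 and 701.7 CPM in HET, against 897.2 and 1002 CPM in WT, and neither difference passed the edgeR test (adjusted p = 0.584 in CC and 1 in CB). In CC against CB, all 4 dark zone markers had negative log2 fold changes in both genotypes, and all 5 light zone markers had positive ones. At an edgeR adjusted p under 0.05, 3 dark zone markers passed as lower in HET and 4 in WT. Of the light zone markers, 4 passed as higher in HET and 3 in WT. Among all genes tested, 1.63% passed as lower and 2.18% as higher in HET, and 3.85% and 3.59% in WT. B cell markers summed to 3557 to 4664 CPM in CC libraries and 4362 to 5214 CPM in CB libraries. Germinal centre B cell markers summed to 944.1 and 1266 CPM in HET CC, against 1480 and 1598 CPM in HET CB, and to 784.5 and 1138 CPM in WT CC, against 1619 and 1570 CPM in WT CB, with none of 6 past the threshold in HET and 1 lower in WT CC.

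Histone RNA made up a visibly smaller share of CC than of CB libraries in both genotypes. It was 0.351% and 0.458% of counts in HET CC, against 0.97% and 0.92% in HET CB. It was 0.203% and 0.248% of counts in WT CC, against 0.596% and 0.692% in WT CB. On the TMM scale the 65 members summed to 3865 ± 973 CPM in HET CC, 9763 ± 527.8 CPM in HET CB, 2148 ± 344.2 CPM in WT CC and 7005 ± 1208 CPM in WT CB (SD, n = 2 each). Within each fraction both HET libraries lay above both WT libraries, and within each genotype both CC libraries lay below both CB libraries.

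Each of the 5 classes had this order. H1, which binds linker DNA between nucleosomes, summed to 1087 and 1203 CPM in HET CC, 2267 and 2281 CPM in HET CB, 586.1 and 604.8 CPM in WT CC, and 1719 and 1792 CPM in WT CB. H4, which pairs with H3 at the centre of the nucleosome, summed to 552.8 and 769.5 CPM in HET CC, 1817 and 1831 CPM in HET CB, 411 and 408.7 CPM in WT CC, and 1070 and 1327 CPM in WT CB. The ratio of CC to CB class sums ran from 0.341 (H2A) to 0.504 (H1) in HET and from 0.216 (H2A) to 0.342 (H4) in WT, so H2A had the lowest ratio in both genotypes. H2A was also the class with the fewest counts, with 216 and 543 in HET CC and 78 and 174 in WT CC. Its genotypes were barely separated in CC, with 288.4 and 643.8 CPM in HET CC and 139.4 and 284.4 CPM in WT CC. H1 supplied 34.2% and 26.4% of the summed histone level in HET CC, against 24.1% and 22.5% in HET CB, and its share was 30.8% and 25.3% in WT CC, against 27.9% and 22.8% in WT CB.

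**Figure D1:**
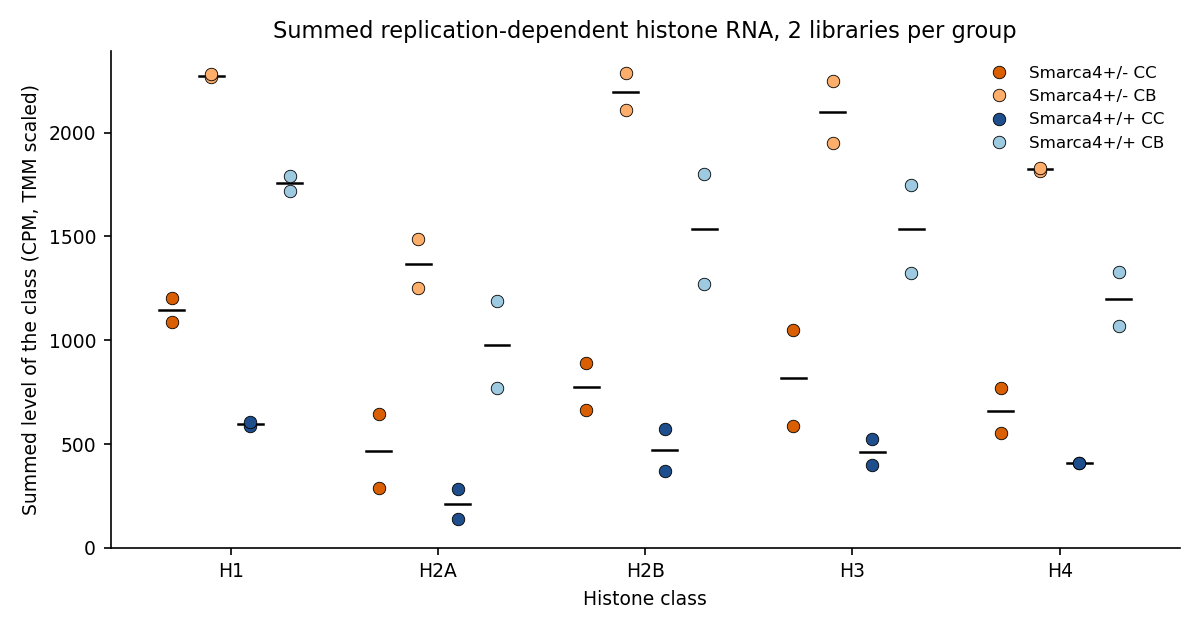
Summed level of each histone class (CPM, TMM scaled) in each library; points are the 2 libraries of a group and bars their mean. In every class the CC points lie below the CB points of the same genotype and the HET points above the WT points of the same fraction, as for H1 with 1087 and 1203 CPM in HET CC and 586.1 and 604.8 CPM in WT CC.

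Levels differed widely between members, least so among H4 genes (16.1 to 355.7 CPM per kb). Per kilobase of annotated exon, the mean level over the 8 libraries ran from 0.0842 CPM (Hist1h2bq) to 505.8 CPM (Hist1h2bn), with a median of 92.5 CPM over the 65 members. In all, 8 members stood under 1 CPM per kb, and 31 stood above 100 CPM per kb.
The 4 highest per kilobase in each class carried much of the class sum. For H1 they were Hist1h1b (330.7 CPM per kb), Hist1h1a (286.4), Hist1h1c (270.2) and Hist1h1e (155.1), which held 81.7% of the H1 level. For H2A they were Hist1h2ak (378.6 CPM per kb), Hist1h2ab (333.6), Hist1h2af (190.8) and Hist2h2ac (144.1), with 60.5% of the H2A level. For H2B they were Hist1h2bn (505.8 CPM per kb), Hist1h2bb (309.4), Hist1h2bg (275.9) and Hist1h2bk (234.8, level with Hist1h2bl when rounded), with 50.8% of the H2B level. Hist1h3e led the H3 genes at 419.5 CPM per kb, ahead of Hist1h3c (295.2), Hist1h3i (239.3) and Hist1h3a (154.2), and these 4 held 58.4% of the H3 level. Hist1h4k led the H4 genes at 355.7 CPM per kb, ahead of Hist1h4h (295.4), Hist1h4d (211.6) and Hist1h4b (202.8), with 55.8% of the H4 level. Annotated exon length differs widely between histone genes (741 bases for Hist1h1a and 7425 bases for Hist1h1d), and a long annotated tail lowers the per-kilobase value.

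Testis members of the clusters were at or near 0. Hist1h1t, a testis linker histone, had 0 and 1.19 CPM in HET CC, 2.11 and 3.46 CPM in HET CB, 0 and 0 CPM in WT CC, and 0.203 and 1.49 CPM in WT CB. Hist1h2aa had no count in any library and Hist1h2ba had 1 count in all.

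The first comparison asked how histone RNA differed between CC and CB within each genotype. In HET, 32 of the 58 tested members were lower in CC than in CB, none was higher and 26 did not pass (edgeR quasi-likelihood test, Benjamini-Hochberg adjusted p under 0.05 over all 12997 genes tested). Over all genes tested, 1.63% passed as lower in HET CC and 2.18% as higher. In WT, 32 of 58 were likewise lower in CC, none was higher and 26 did not pass, against 3.85% of all genes lower and 3.59% higher. The median log2 fold change of the 58 members was -1.43 in HET and -1.56 in WT, against -0.08 and -0.19 over all genes tested.

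The lists called in the 2 genotypes overlapped in 25 genes, which is 78.1% of each list, and 39 genes were called in at least 1 genotype. With 32 of 58 tested members on each list, part of this overlap would arise without any relation between the genotypes. The overlap over all genes called is not given here, so no agreement is read from it. Both CC libraries lay below both CB libraries in 57 of 58 tested members in HET, against 33.2% of all genes tested, and in 51 of 58 in WT, against 38.5% of all genes tested. With members at 0 in both CC libraries set to a floor of 3 counts per library, or to 0 where no fold could be given, the medians were -1.41 in HET and -1.5 in WT. Total count scaling put the median of all genes at 0.04 in HET and 0.00 in WT, and the members' medians were then -1.31 in HET and -1.37 in WT.

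The HET count rested on single libraries. No member passed in HET without HET CB replicate 1 (0) or without HET CB replicate 2 (0), 3 passed without HET CC replicate 1, and 8 passed without WT CB replicate 1 or without WT CB replicate 2. Calls over all genes tested, 495 with all libraries, were 10, 1, 83, 268 and 266 in the same order, so the loss was not limited to histone genes. In WT, 11 members passed without WT CB replicate 2, when 222 of all genes passed, against 968 with all libraries. The median log2 fold change of the members stayed between -1.79 and -1.25 in HET and between -2.26 and -1.32 in WT when each of the 8 libraries was left out in turn.

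Markers of other cells moved with the fraction. All 15 macrophage markers had positive log2 fold changes, with 11 higher in HET CC and 9 in WT CC by the same test. The macrophage list summed to 5021 and 2170 CPM in HET CC, 153 and 97.4 CPM in HET CB, 3976 and 4211 CPM in WT CC, and 72.9 and 349.6 CPM in WT CB. None of its genes was at 0 in a CC library. T cell markers summed to 269.7 and 205.1 CPM in HET CC and 602.2 and 652.3 CPM in WT CC, against 112.5 to 136.8 CPM in CB libraries, with 5 of 12 higher in HET CC and 9 of 12 in WT CC. Erythroid markers summed to 494.1 and 139.9 CPM in HET CC and 714.8 and 830.4 CPM in WT CC, against 7.78 to 17.7 CPM in CB, with 6 of 9 tested higher in HET CC and 7 in WT CC. Their part in the lower histone level of CC libraries was not tested.

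**Figure D2:**
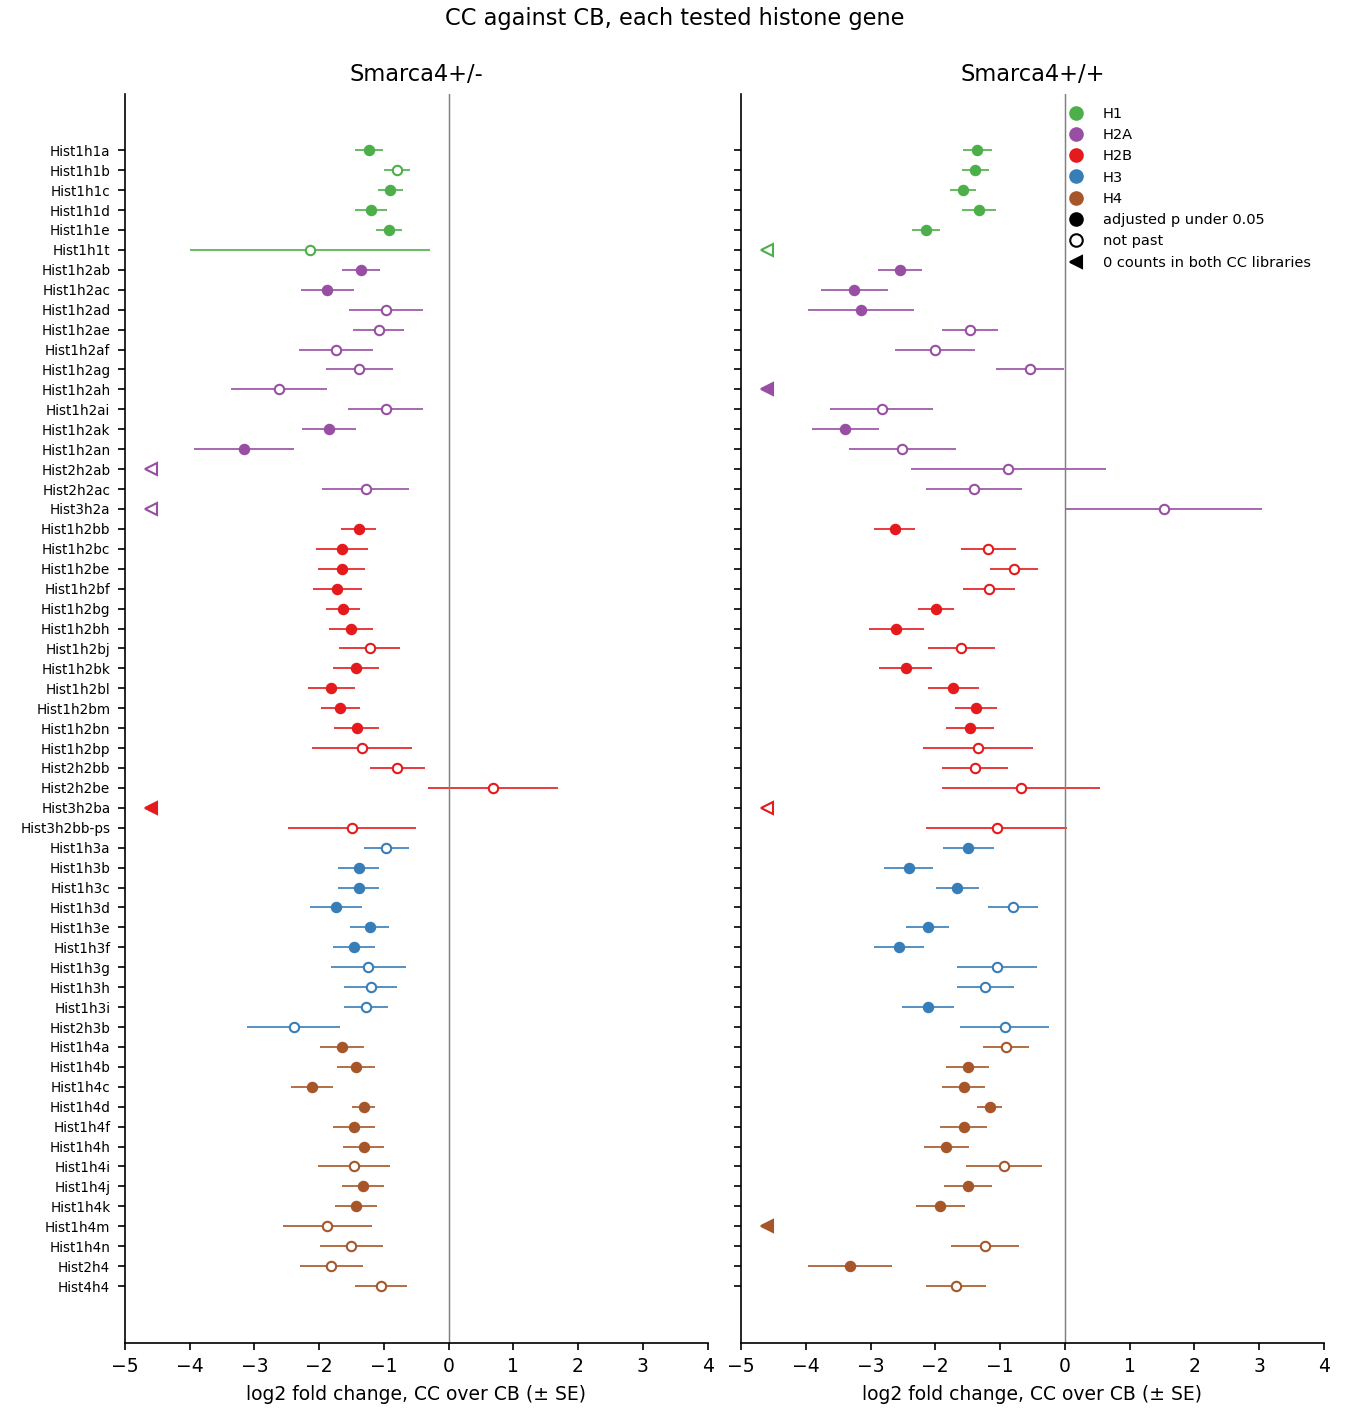
Log2 fold change of CC over CB with its SE for the 58 tested members, by class, in Smarca4+/- (left) and Smarca4+/+ (right); filled symbols passed at an adjusted p under 0.05 and triangles at the left edge mark genes with 0 counts in both CC libraries. Nearly all symbols lie left of 0, with members' medians of -1.43 in HET and -1.56 in WT; Hist2h2be in HET and Hist3h2a in WT lie to the right and are open.

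Among H1 genes, 4 of 6 were lower in CC in HET and 5 of 6 in WT. Hist1h1e, a major somatic linker histone gene, had 247 and 246.6 CPM in HET CC, against 453 and 483.9 CPM in HET CB. In WT it had 107.2 and 71.9 CPM in CC, against 371.2 and 414.1 CPM in CB. Its log2 fold change was -0.92 ± 0.20 (SE) in HET (edgeR adjusted p = 0.0244) and -2.14 ± 0.22 in WT (adjusted p = 0.000582). Hist1h1a, Hist1h1c and Hist1h1d also fell in both genotypes, with log2 fold changes of -1.23, -0.90 and -1.2 in HET and -1.35, -1.57 and -1.32 in WT. Hist1h1b had 219 and 211 CPM in HET CC, against 362.6 and 380.3 CPM in HET CB, and missed the threshold there (edgeR adjusted p = 0.0501); it fell in WT by 1.38 on the log2 scale. Hist1h1c belongs to the small group of histone genes known to yield polyadenylated RNA outside S phase as well.

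Among H2A genes, 4 of 13 were lower in CC in HET and 5 of 13 in WT. Hist1h2ak, the H2A gene of highest level per kilobase, had 34.7 and 129.2 CPM in HET CC, against 270.7 and 324.5 CPM in HET CB. In WT it had 21.4 and 16.3 CPM in CC, against 171.4 and 221.9 CPM in CB. Both fractions were fully separated, and the log2 fold change was -1.85 ± 0.42 in HET (edgeR adjusted p = 0.0333) and -3.39 ± 0.52 in WT (adjusted p = 0.00341). Hist1h2ac fell by 1.87 in HET and by 3.25 in WT on the log2 scale, and Hist1h2ab fell by 1.35 in HET and by 2.55 in WT. The WT value of Hist1h2ac rested on 4 and 8 counts in WT CC. Hist1h2an passed in HET on few counts, with 0 and 14.2 CPM in HET CC, against 54.2 and 78.5 CPM in HET CB (log2 fold change -3.16 ± 0.77, edgeR adjusted p = 0.0431), and had an adjusted p of 0.0959 in WT. Hist1h2ad passed in WT, with 3.57 and 3.27 CPM in WT CC, against 22.4 and 38.4 CPM in WT CB (log2 fold change -3.15 ± 0.82, edgeR adjusted p = 0.0401). Both WT CC values of Hist1h2ad lay under the 5.36 and 4.9 CPM that 3 counts make there. Hist1h2ah was at 0 in both WT CC libraries, against 17.7 and 35.5 CPM in WT CB, which is at least 5.18-fold lower when set against 3 counts per library (edgeR adjusted p = 0.0151). At 78 and 174 counts for all 17 H2A genes, WT CC libraries could show single H2A genes only coarsely. Of nonzero member counts in WT CC, 100% and 98% were even, so 3 counts may stand for fewer than 3 read pairs.

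Among H2B genes, 11 of 16 were lower in CC in HET and 7 of 16 in WT. Hist1h2bg had 77.4 and 123.3 CPM in HET CC, against 302.6 and 319.4 CPM in HET CB. In WT it had 46.5 and 62.1 CPM in CC, against 190 and 242.9 CPM in CB. The log2 fold change was -1.63 ± 0.26 in HET (edgeR adjusted p = 0.00716) and -1.99 ± 0.28 in WT (adjusted p = 0.00242), with no overlap of libraries. Hist1h2bb, Hist1h2bh, Hist1h2bk, Hist1h2bl, Hist1h2bm and Hist1h2bn also fell in both genotypes. Hist1h2bn, the member of highest level per kilobase, fell by 1.42 in HET and by 1.46 in WT on the log2 scale. Hist3h2ba, on chromosome 11, was at 0 in all 4 CC libraries, against 13.7 and 13.7 CPM in HET CB and 7.62 and 11.9 CPM in WT CB. That is at least 3.63-fold lower in HET CC (edgeR adjusted p = 0.0471) and at least 1.9-fold lower in WT CC (adjusted p = 0.0669, not past).

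A pair of H2B genes is known to yield polyadenylated RNA in differentiated cells. Their log2 fold changes had unlike signs in HET and the same sign in WT, and the difference between the genes was not tested. Hist1h2bc had 45.4 and 49.8 CPM in HET CC, against 145.4 and 152.5 CPM in HET CB, and fell there by 1.64 on the log2 scale; in WT, with 21.4 and 71.9 CPM in CC against 86.5 and 126.7 CPM in CB, it did not pass (edgeR adjusted p = 0.115). Hist2h2be had 2.67 and 14.2 CPM in HET CC, against 5.22 and 5.38 CPM in HET CB, with a log2 fold change of 0.69 ± 1.00 (edgeR adjusted p = 0.759). It was the only tested member with a positive value in HET and rested on few counts. Its 2.67 CPM in HET CC replicate 1 lay under the 4.01 CPM that 3 counts make there. In WT, Hist2h2be had a log2 fold change of -0.68, against -1.18 for Hist1h2bc, and did not pass.

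Among H3 genes, 5 of 10 were lower in CC in HET and 6 of 10 in WT. Hist1h3e had 164.2 and 355.7 CPM in HET CC, against 584.1 and 629.1 CPM in HET CB. In WT it had 82.2 and 117.7 CPM in CC, against 372.4 and 500.2 CPM in CB. These are the largest H3 values, and the log2 fold change was -1.22 ± 0.30 in HET (edgeR adjusted p = 0.0489) and -2.12 ± 0.33 in WT (adjusted p = 0.0035). Hist1h3b, Hist1h3c and Hist1h3f fell in both genotypes, by 1.39, 1.39 and 1.46 in HET and by 2.41, 1.66 and 2.56 in WT. Hist1h3i fell in WT by 2.11 and had an adjusted p of 0.068 in HET, with a log2 fold change of -1.27.

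Among H4 genes, 8 of 13 were lower in CC in HET and 9 of 13 in WT, and in all 13 both CC libraries lay below both CB libraries in both genotypes. Hist1h4d had 170.9 and 163.6 CPM in HET CC, against 430.6 and 397.9 CPM in HET CB. In WT it had 121.5 and 114.4 CPM in CC, against 254.2 and 273.5 CPM in CB. Its replicates were close, and it had the smallest adjusted p of the members in HET, with log2 fold changes of -1.31 ± 0.18 in HET (edgeR adjusted p = 0.00386) and -1.16 ± 0.19 in WT (adjusted p = 0.00415). Hist1h4c fell by 2.11 in HET and by 1.56 in WT, with 32 and 56.9 CPM in HET CC, against 189.5 and 198.3 CPM in HET CB. Hist2h4, on chromosome 3, had 10.7 and 3.27 CPM in WT CC, against 59 and 78 CPM in WT CB (log2 fold change -3.32 ± 0.65, edgeR adjusted p = 0.0119). Its 3.27 CPM lay under the 4.9 CPM that 3 counts make in WT CC replicate 2. Hist1h4m was at 0 in both WT CC libraries, against 22.2 and 34.6 CPM in WT CB, at least 5.54-fold lower when set against 3 counts per library (edgeR adjusted p = 0.0185).

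In neither genotype did 16 members averaging 5 CPM or more pass. They were Hist1h2ae, Hist1h2af, Hist1h2ag, Hist1h2ai, Hist1h2bj, Hist1h2bp, Hist1h3g, Hist1h3h, Hist1h4i, Hist1h4n, Hist2h2ac, Hist2h2bb, Hist2h2be, Hist2h3b, Hist3h2bb-ps and Hist4h4. All but Hist2h2be in HET had negative log2 fold changes. Hist1h2ag had 13.4 and 47.4 CPM in HET CC, against 80.9 and 79.1 CPM in HET CB, and 25 and 45.8 CPM in WT CC, against 34.4 and 69.2 CPM in WT CB. Hist2h3b had 2.67 and 42.7 CPM in HET CC, against 115 and 129.7 CPM in HET CB, and 14.3 and 71.9 CPM in WT CC, against 68 and 98.1 CPM in WT CB. The CC replicates of both genes spread widely. Hist4h4, on chromosome 6, had 26.7 and 47.4 CPM in HET CC, against 61.4 and 91.7 CPM in HET CB, and its log2 fold change of -1.68 in WT just missed the threshold (edgeR adjusted p = 0.0532).

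The second comparison set HET against WT within CB, the deeply sequenced fraction. No member passed, and 0% of all genes tested passed in either direction with edgeR; 7 of 58 members had an unadjusted p under 0.05, all higher in HET, against 0.262% of all genes tested. The values lay on one side: 56 of 58 members had a positive log2 fold change, with a median of 0.50, against 49.3% of all genes tested and a median of 0.00. Both HET libraries lay above both WT libraries in 49 of 58 tested members, against 16.2% of all genes tested, and in all 13 H4 and all 6 H1 genes. Members were measured in the same libraries and many share sequence, so in every comparison they are not independent of each other. Such counts describe the set and carry no test. Class medians were 0.40 for H1, 0.42 for H2A, 0.52 for H2B, 0.47 for H3 and 0.60 for H4. The members' median was 0.29 without WT CB replicate 1 and 0.79 without WT CB replicate 2, so its size moved with the choice of WT CB library. The summed histone level was 1.39 times as high in HET CB as in WT CB.

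The smallest p-values in CB belonged to 4 H4 genes and 1 H1 gene. Hist1h4d had 430.6 and 397.9 CPM in HET CB, against 254.2 and 273.5 CPM in WT CB (log2 fold change 0.65 ± 0.17, edgeR adjusted p = 1). Hist1h1a had 389.4 and 324.9 CPM in HET CB, against 252.2 and 235.8 CPM in WT CB (log2 fold change 0.55 ± 0.20, edgeR adjusted p = 1). Hist1h4c had 189.5 and 198.3 CPM in HET CB, against 115.9 and 115.1 CPM in WT CB (log2 fold change 0.75 ± 0.27, edgeR adjusted p = 1). In these 3 genes the genotypes did not overlap. Hist1h4j and Hist1h4a had log2 fold changes of 0.79 and 0.70. By other tools Hist1h4d passed with DESeq2 (adjusted p = 0.00108) and with limma-voom (adjusted p = 0.0206), and Hist1h4c passed with limma-voom (adjusted p = 0.0381) and with edgeR fitted to the CB libraries alone (adjusted p = 0.0287). Over all genes, DESeq2 called 2, limma-voom 5 and edgeR on the CB libraries alone 6.

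The third comparison set HET against WT within CC. No member passed with edgeR (0 of 58), while 3 genes of all tested passed (0.0231%, all lower in HET); 27 of 58 members had an unadjusted p under 0.05, all higher in HET, against 8.74% of all genes tested. The log2 fold change was positive in 51 of 58 members, against 55% of all genes tested, and its median was 0.77, or 0.68 with genes at 0 set to the floor, against 0.04 over all genes. Both HET libraries lay above both WT libraries in 29 of 58 members, against 18.1% of all genes tested, and none lay wholly below. The median was 0.46 without HET CC replicate 2 and 0.99 without HET CC replicate 1. It was 0.67 without WT CC replicate 1 and 1.13 without WT CC replicate 2, so its size moved with the choice of CC library. The summed histone level was 1.8 times as high in HET CC as in WT CC. T cell and erythroid markers summed lower in HET CC than in WT CC (0.379 and 0.41 of the WT level), macrophage markers summed to 0.878 of it, and their part in the histone difference was not tested.

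The smallest adjusted p in CC was 0.0722, for Hist1h1e, with 247 and 246.6 CPM in HET CC, against 107.2 and 71.9 CPM in WT CC (log2 fold change 1.47 ± 0.22, edgeR). Hist1h2bb had 85.5 and 132.8 CPM in HET CC, against 28.6 and 36 CPM in WT CC (log2 fold change 1.76 ± 0.33, edgeR adjusted p = 0.0949). Hist1h1c had 279.1 and 415 CPM in HET CC, against 168 and 179.8 CPM in WT CC (log2 fold change 1.00 ± 0.21, edgeR adjusted p = 0.102). All 3 were separated by genotype. Hist1h2ab (1.61) and Hist1h1b (0.97), both with an adjusted p of 0.117, were separated too. The call depended on the tool: DESeq2 called 11 members among 712 genes in all, the members all higher in HET, including Hist1h1e (adjusted p = 2.93e-08), Hist1h1c (0.000586), Hist1h1b (0.000911) and Hist1h2bb (0.000914), and edgeR without a filter on low counts called 14 members among 323 genes. Leaving out WT CC replicate 1 let Hist1h1e pass with edgeR (adjusted p = 0.0496), among 43 genes in all.

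**Figure D3:**
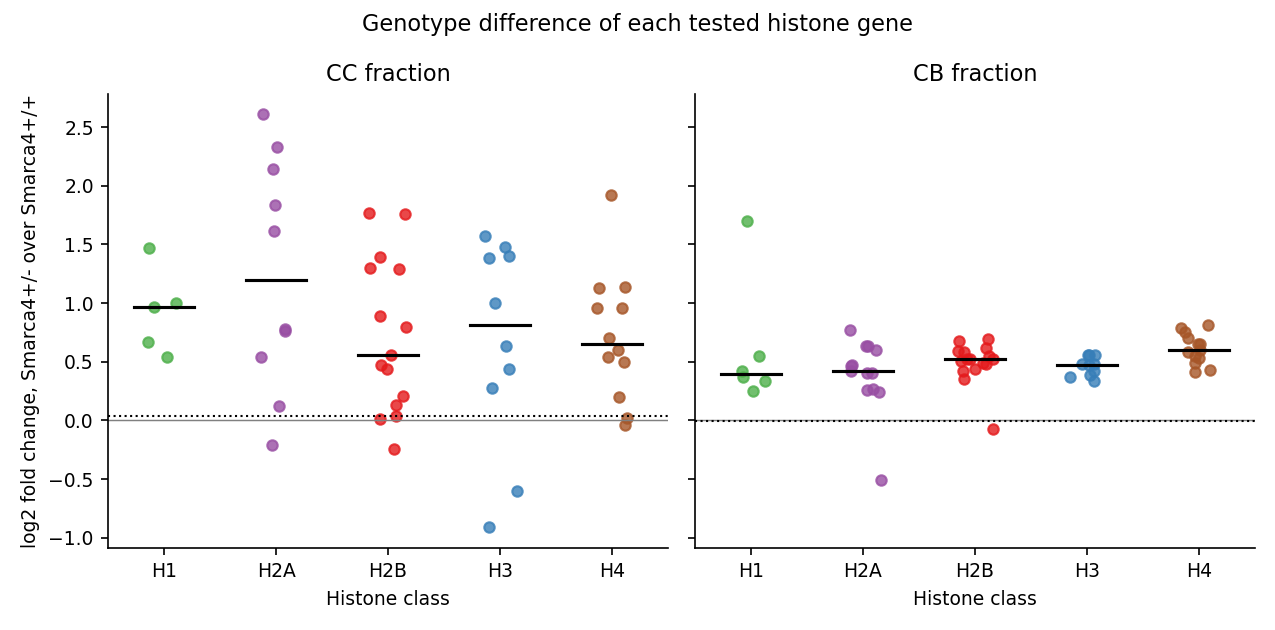
Log2 fold change of Smarca4+/- over Smarca4+/+ for tested members in CC (left) and CB (right), by class; genes at 0 in both libraries of a group are left out, bars are medians of the genes shown and the dotted line is the median of all genes tested (0.04 in CC and 0.00 in CB). Points lie mostly above 0 in both panels and spread more in the shallow CC libraries; none passed at an adjusted p under 0.05.

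Whether the genotype difference was itself different between CC and CB was tested as an interaction. No member passed with edgeR (0 of 58, and 0% of all genes), and 7 had an unadjusted p under 0.05, all towards a larger HET excess in CC, against 5.46% of all genes tested. The smallest adjusted p was 0.412, for Hist1h1e, whose log2 difference of differences was 1.21 ± 0.29 (edgeR); DESeq2 gave that gene an adjusted p of 0.00136, among 259 genes it called. Hist1h2bb and Hist1h2ab had values of 1.23 and 1.2, and Hist1h1c one of 0.66. The members' median of 0.27 turned to -0.05 without HET CC replicate 2, so no direction is given for the class.

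Genes that make and process histone RNA, which include Npat (the coactivator of the histone locus), Slbp and the 3′ cleavage factors, were less shifted in value than the histones. Of 23 in the list, 1 was lower in CC in HET and 4 in WT, with medians of -0.69 and -0.5. The shares of all genes tested that passed as lower, 1.63% in HET and 3.85% in WT, apply to this and the following lists. Cpsf2, a subunit of the cleavage complex, passed in both, with 169.6 and 213.4 CPM in HET CC, against 397.7 and 299 CPM in HET CB (log2 fold change -0.86 ± 0.21, edgeR adjusted p = 0.0409), and fell by 1.10 in WT. Hinfp, a transcription factor known for H4 genes, had 42.9 and 36 CPM in WT CC, against 123.7 and 142.3 CPM in WT CB (log2 fold change -1.76 ± 0.27, edgeR adjusted p = 0.00321), and Sympk and Pou2f1 fell in WT by 1.04 and 1.17. Slbp had 134.9 and 186.1 CPM in HET CC, against 244.1 and 212.4 CPM in HET CB, and 75.1 and 143.9 CPM in WT CC, against 202.1 and 203.9 CPM in WT CB, and passed in neither. Npat had log2 fold changes of -0.16 and -0.18. None of the 23 passed between genotypes in either fraction (edgeR).

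The list of histone variants, whose genes lie outside the clusters, included 3 of 10 tested genes lower in CC in each genotype. H2afx, the DNA damage variant, had 82.8 and 180.2 CPM in HET CC, against 405.4 and 455.2 CPM in HET CB, and fell by 1.70 in HET and by 2.10 in WT. Cenpa, the centromeric H3 variant, fell by 2.07 in HET and by 2.76 in WT. H3f3b passed in HET alone (-0.74, edgeR adjusted p = 0.0336) and H2afy in WT alone (-0.88, adjusted p = 0.0432), without a test of the difference. H2afz had log2 fold changes of -0.46 in HET and -1.40 in WT and passed in neither. Of 22 histone chaperones, none passed in HET, and in WT Chaf1a, the large subunit of the replication chaperone CAF-1, and Hjurp, the chaperone of Cenpa, fell by 0.96 and 1.63.

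Cell cycle genes differed between the same libraries. Of 32 G1/S and DNA replication genes, 5 were lower in CC in HET and 8 in WT, with medians of -0.56 and -0.69. Of 30 G2/M and mitosis genes, 11 were lower in HET and 25 in WT, with medians of -1.07 and -2.17. Among all genes tested, 1.63% were lower in HET and 3.85% in WT. The summed G1/S level was 4118 and 4923 CPM in HET CC, 7545 and 6632 CPM in HET CB, 3842 and 4043 CPM in WT CC, and 6338 and 6365 CPM in WT CB. The summed G2/M level, in which Mki67 weighs heavily, was 3921 and 5901 CPM in HET CC, against 2518 and 2482 CPM in WT CC, a ratio of means of 1.96, while the G1/S ratio was 1.15.

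Histone level per unit of G1/S level was lower in CC in both genotypes. It was 0.771 and 0.925 in HET CC, 1.24 and 1.53 in HET CB, 0.496 and 0.592 in WT CC, and 0.971 and 1.23 in WT CB, and HET lay above WT in both fractions. Per unit of G2/M level the ordering was not kept. That ratio was 0.81 and 0.772 in HET CC, 0.853 and 1.14 in HET CB, 0.757 and 0.964 in WT CC, and 0.72 and 0.822 in WT CB, so CC and CB overlapped in WT and the genotypes overlapped in CC. These ratios carry no test, and with 2 libraries per group an exact permutation test could not go below p = 0.333.

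**Figure D4:**
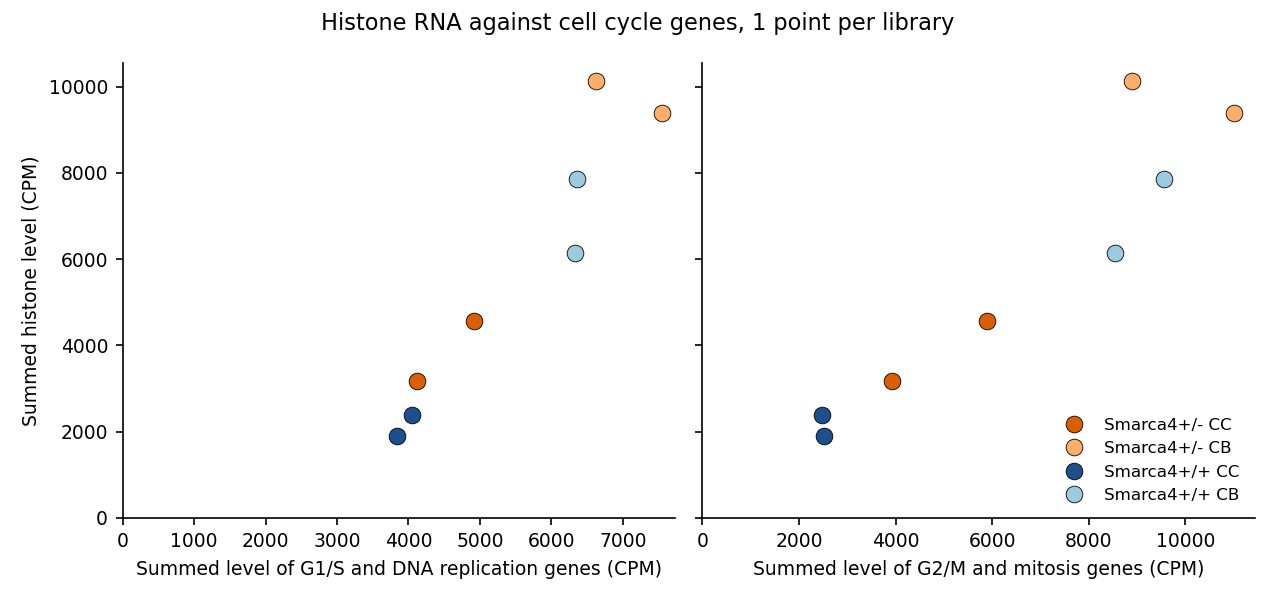
Summed histone level against the summed level of G1/S and DNA replication genes (left) and of G2/M and mitosis genes (right), in CPM, with 1 point per library. The G2/M level separates WT CC (2518 and 2482 CPM) from HET CC (3921 and 5901 CPM), while the G1/S levels of the CC libraries lie close together (3842 to 4923 CPM).

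The genes outside the members whose log2 level ran most like the summed histone level over the 8 libraries, among 6230 genes averaging 20 CPM or more, were Racgap1 (Pearson r = 0.985), Nmral1 (0.985), Chaf1a (0.981), Nuf2 (0.98) and Kif20a (0.978). Racgap1 and Kif20a act in cytokinesis, Nuf2 is a kinetochore subunit and Chaf1a deposits histones at replication forks. These are descriptions over 8 libraries that differ mainly in fraction and depth.

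By position, the 53 Hist1 members lie on chromosome 13 in 3 blocks, with smaller Hist2, Hist3 and Hist4 loci on chromosomes 3, 11 and 6. In the block at chr13:23531050-23764406 (mm10), 23 of 29 tested members were lower in CC in HET and 20 in WT, with medians of -1.39 and -1.57. In the block at chr13:21715763-21837530, 7 of 14 were lower in HET and 9 in WT, with medians of -1.42 and -1.60. In the block at chr13:22035164-22043676, 1 of 5 was lower in HET and 2 in WT, with medians of -1.43 and -1.60. The Hist2 locus on chromosome 3 had 0 of 6 in HET and 1 in WT, with medians of -1.54 and -1.16. At the Hist3 locus on chromosome 11, 1 of 3 was lower in HET and 0 in WT; 2 of these genes were at 0 in both HET CC libraries, so no median is given for HET, and the WT median was -1.05. Hist4h4, alone on chromosome 6, had log2 fold changes of -1.04 in HET and -1.68 in WT and passed in neither.

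Many H2A and H2B genes stand head to head over a shared promoter. Among the 70 named genes there were 14 such pairs, with annotated starts 173 to 306 bases apart, and 10 of them had both genes tested. Hist1h2ak and Hist1h2bn, 296 bases apart, were both among the highest per kilobase (378.6 and 505.8 CPM per kb). Hist2h2ac and Hist2h2be, 239 bases apart, were unlike, with 144.1 and 2.18 CPM per kb. Hist1h2ae and Hist1h2bg had 109.2 and 275.9 CPM per kb, and Hist1h2bg but not Hist1h2ae passed between fractions. Their log2 fold changes were -1.08 and -1.63 in HET and -1.46 and -1.99 in WT, and the difference between the genes was not tested.

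Near-identical copies limit what single genes can show. The share of 50-base windows of a gene's transcripts found in no other gene ran from 0% (Hist2h2aa2) to 100%, with medians of 98.8% for H1, 21.1% for H2A, 56% for H2B, 39.6% for H3 and 60.5% for H4. How the authors' counting treated reads that match several genes is not given in the sources used here, so single values of copies with low shares are uncertain. Of 35 tested members with at least 50% unique windows, 21 were lower in CC in HET and 19 in WT, with medians of -1.46 and -1.46. Of 20 with 10% to 50%, 11 were lower in HET and 12 in WT, with medians of -1.43 and -1.96. Of 8 members under 10%, 5 were not tested and the 3 tested (Hist1h2ah, Hist1h2ai and Hist1h3h) included 1 call, in WT. Every H2A member also overlaps another annotated gene, mostly on the opposite strand, and Hist1h1e shares bases with Hist1h2be; without the strand setting such reads cannot be assigned. Among the 40 tested members that overlap no other gene, 25 were lower in CC in each genotype.

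**Figure D5:**
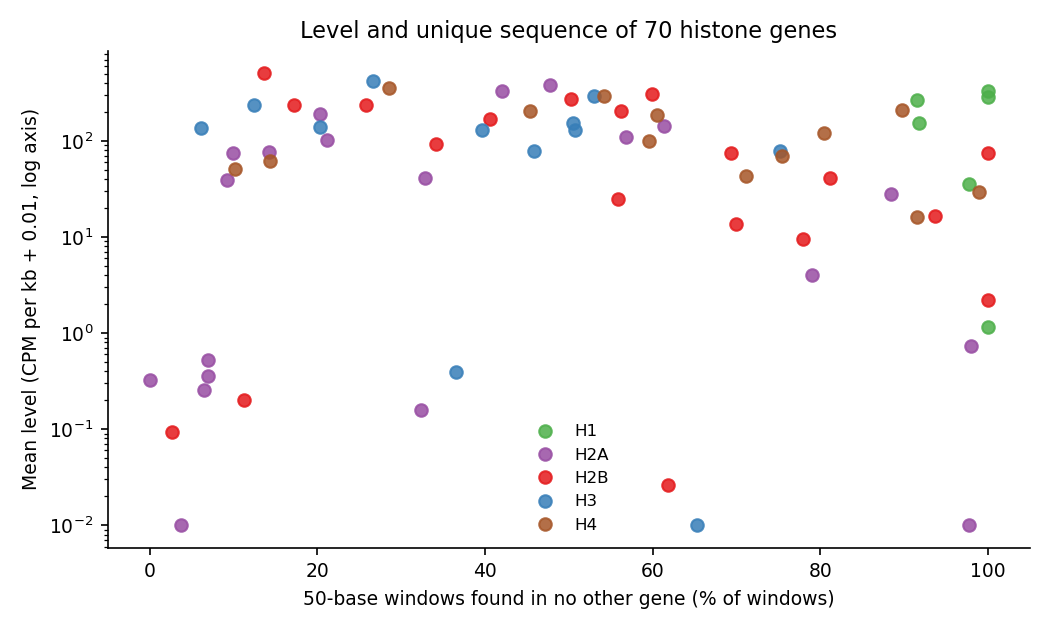
Mean level of each of the 70 named histone genes (CPM per kb plus 0.01, log axis) against the share of its 50-base transcript windows found in no other gene, coloured by class. H1 genes lie at the right with at least 91.5% unique windows, and a group of H2A and H2B copies with few unique windows lies under 1 CPM per kb.

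Calls and medians were also set out by the annotated stem-loop, with no test between the sets. Of 27 tested members with an exact copy, 17 were lower in CC in HET and 16 in WT, with medians of -1.39 and -1.56. Of 10 with 1 mismatch, 6 were lower in each genotype, with medians of -1.44 and -2.29. Of 21 with none found, 9 were lower in HET and 10 in WT, with medians of -1.43 and -1.46.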

How the data were processed

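Read counts per gene were deposited by the authors as 1 table of whole numbers, 1 column per library, together with a gene length in bases deposited by the authors, which equalled the summed length of the merged exons. Per the submitters' processing notes, FastQC, STAR, featureCounts, Subread, R 4.2.1 and the build mm10 were used; aligner versions, the strand setting and the handling of reads with several matches were not given in the sources used here. Most low counts were even (86.8% to 93.3% of counts from 3 to 10 in CC libraries and 76% to 83.4% in CB libraries), and 1 gene (Gm26917) held 14.4% to 27.3% of each library.

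Groups came from the sample titles. Genes passing edgeR's filterByExpr (minimum count 10, minimum total 15) were scaled with TMM and fitted with edgeR 4.0.16 (quasi-likelihood, robust, 4 residual degrees of freedom) in R 4.3.3 with 1 mean per group over all 8 libraries, and p-values were Benjamini-Hochberg adjusted over all 12997 genes tested in each of 5 contrasts, with 0.05 as the threshold. DESeq2 1.42.0, limma 3.58.1 (voom), other scalings and filters, a replicate block, thinned CB libraries, halved counts (added after the data were seen) and omission of each library were alternatives. The procedure was tested on simulated data. A floor of 3 counts per library bounded folds of genes at 0. If both reads of a pair were counted, which was not stated, a floor of 3 pairs would give smaller folds.

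The members and lists were chosen with earlier results of these data known. Named genes were the 4 highest per kilobase in each class, the 6 largest called changes per contrast averaging 5 CPM or more without overlap (or the 5 smallest p-values), members averaging 5 CPM or more that passed in neither fraction contrast or were positive in 1, members at 0 in 1 group, polyadenylated and testis histones, Smarca4, called genes of the processing and variant lists with up to 4 of other lists, and the 5 most correlated genes. Other members named in the text were chosen after their values were seen. GENCODE M21 transcripts and RefSeq promoters supplied sequences.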

Additional observations from a re-analysis of the deposited data

How the results depend on the processing

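Against 32 members lower in CC in HET, limma-voom called 5, a filter of at least 50 counts in 2 libraries 18, a fit of only the groups compared 17 and thinned CB libraries 17; leaving out 1 library gave 0 to 40, with 0 without HET CB replicate 1 or HET CB replicate 2, 3 without HET CC replicate 1 and 8 without either WT CB library. Against 32 in WT, limma-voom called 5 and only the groups compared 10; leaving out 1 library gave 11 to 36, with 11 without WT CB replicate 2. DESeq2 called 36 in each. For HET against WT in CB (0 members), DESeq2 called 1, limma-voom 2 and only the groups compared 1. Over all genes, these 3 fits called 2, 5 and 6 in that contrast. In CC (0 members), DESeq2 called 11, no low count filter 14, thinned CB libraries 1 and halved counts 4, and leaving out 1 library gave 0 to 1, with 1 without WT CC replicate 1. For the interaction (0 members), DESeq2 called 1. The cause of these shifts was not tested, beyond the fewer libraries or genes that some alternatives hold. Over all genes, DESeq2 called 1386 in HET and 2047 in WT, against 495 and 968 with edgeR. For HET against WT in CC, where edgeR called 3 genes, DESeq2 called 712, no low count filter 323, thinned CB libraries 10 and halved counts 49. With G2/M genes as denominator, the fold of the histone ratio turned to 1.12 for CC against CB in WT (0.494 with G1/S genes) and to 0.919 for HET against WT in CC (1.56 with G1/S genes). Named genes were followed in 59 pairs of gene and contrast. These were the largest called changes or smallest p-values per contrast, and highest-level or polyadenylated members called lower in CC. No log2 fold change of these pairs reversed. Counted once per pair and alternative, 912 results kept their side of the threshold, 232 lost it and 20 gained it. Other named genes were not followed.

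Correlations of replicate differences between groups ran from -0.046 to 0.053. Replicates correlated at only 0.751 in HET CC and 0.738 in WT CC. The values near 0 therefore cannot show whether a replicate number marks CC and CB libraries of the same mice. With the replicate number as a block shared by both genotypes, 30 members were lower in HET and 36 in WT, and none passed between genotypes. With a separate replicate block within each genotype, 38 members were lower in HET and 40 in WT, among 573 and 956 genes called in all. For the interaction that fit called 0 members among 10 genes. CC depth limits single genes: 3 counts were 3.56 to 5.36 CPM there, against 0.14 to 0.158 CPM in CB.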
